A study of Mus musculus with 5 samples.

Results

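The 35 genes described here, of fatty acid uptake, activation and beta-oxidation, were followed through neonatal hearts with and without the long noncoding RNA Charme. The genes were taken from a list of symbols, which also holds regulators of the pathway and enzymes of triglyceride turnover. All 35 were found among the 49671 counted genes, and all 35 had enough counts to be tested. Their lowest count in any library was 29, and 33 of them had at least 100 counts in every library.

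The libraries were poly(A) RNA-seq libraries of whole hearts from C57BL6/J mice at postnatal day 2. Hearts of Charme WT littermates formed 3 pools of 9 hearts each, and hearts of Charme KO littermates formed 2 pools of 3 hearts each. The KO allele carries a PolyA signal inserted into the Charme locus and is present in every cell, and no treatment was given to either group. Because all WT pools held more hearts than the KO pools, heart number and genotype cannot be told apart.

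Gene counts summed to between 16721055 and 21646378 per pool. Charme itself had between 183 and 810 counts in WT pools, and 57 and 79 counts in KO pools, so the libraries followed their labels. All 8 cardiomyocyte markers examined, such as Tnnt2 and Ryr2, were detected in every pool, with a summed level of 41809 to 53480 CPM (counts scaled to the normalised library size) in WT pools and of 44994 and 43157 CPM in KO pools. The KO pools stood apart from each other. KO pool 1 had 21.1% of its counts on mitochondrially encoded genes, against 9.68% to 11.1% in the other pools. KO pool 2 had 2.55% of its counts on salivary gland genes, against 0.0277% in KO pool 1. In WT pools this share was 3.49e-05% to 0.000367%, so both KO pools were above every WT pool. The correlation of log2 CPM over all genes tested was 0.962 between the KO pools and 0.985 to 0.989 between WT pools, each over the same genes. Between a WT and a KO pool it was 0.956 to 0.967, so the KO pools were no more alike than pools of different genotype.

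The heart draws most of its energy from long-chain fatty acids, and it changes from glucose to fatty acids around birth, when milk brings a supply of fat. Lipoprotein lipase frees fatty acids from circulating triglycerides, CD36 and FATP1 carry them across the membrane, and FABP3 binds them in the cytosol. Acyl-CoA synthetase activates them, and the carnitine shuttle (CPT1, a translocase and CPT2) brings them into mitochondria. There each turn of beta-oxidation takes an acyl-CoA through dehydrogenation, hydration, a further oxidation and thiolysis, and electron transfer flavoprotein passes the electrons on. Peroxisomes shorten the very long chains. Malonyl-CoA, made in the heart by ACACB and removed by MLYCD, inhibits CPT1.

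Many genes of the pathway are known targets of PPAR receptors, which bind direct repeats of AGGTCA separated by a single base. Promoter sequences of RefSeq (GRCm38.p6, from 250 bases before to 50 bases after the start site) were matched for 25 of the 35 members, with 29 promoters. The repeat, written AGGTCANAGGTCA and searched on both strands with up to 2 mismatches, was found in 3 of these 25 genes (12%) and in 4.4% of the 27025 genes with a promoter in the table. A single AGGTCA without mismatch, which overlaps the repeat where both match, was found in 6 of the 25 genes (24%) and in 18.1% of all genes. The windows below are those of the 3 members that held the repeat, and of Ucp3, the gene of the pathway with the smallest p-value in these hearts. Each is read 5′ to 3′ along the strand of the match, with the matched letters in capitals.
Cd36, chr5:17835947-17835959, plus strand: ccaagtAAGTCAGAGGCCAgagaac
Echs1, chr7:140116492-140116504, minus strand: ccgctcAGGTCACGGGTCCacccct
Etfa, chr9:55512308-55512320, plus strand: gggagtAGGGCAAAGGTAAgggtgt
Ucp3, chr7:100472940-100472952, plus strand: agaattAGGTTTCAGGTCAgctggt
The matches began 63, 83, 77 and 51 bases before the start site in Cd36, Echs1, Etfa and Ucp3. They describe letters in these windows and do not show that a factor binds there. Ucp3 is not among the 35 members and was shown for its p-value. Other genes of the pathway outside the 35 held the repeat too. In KO over WT hearts, the log2 fold changes of Cd36, Echs1 and Etfa were -0.04, 0.39 and 0.06.

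Expression of the pathway was lower in KO hearts for most of its members, but for most single genes the test did not separate the difference from the spread between pools. The fold change, KO over WT, was below 1 for 27 of the 35 genes and above 1 for 8. The median log2 fold change of the 35 genes was -0.40, which is 75.9% of the WT level, beside a median of 0.02 over the 14880 genes tested. In bulk hearts, fewer cells of a type and less RNA per cell cannot be told apart. Both KO pools lay below every WT pool for 22 of the 35 genes, as they did for 18.2% of all genes tested, and above every WT pool for 3, against 17.8% of all genes. With an unadjusted p under 0.05 (edgeR, quasi-likelihood test), 14 of the 35 genes were lower in KO hearts, against 8.01% of all genes.

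After adjustment over all genes tested, 1 member was called lower in KO hearts, Mlycd. Calls needed an adjusted p under 0.1 and a mean level of 1 FPKM or more (FPKM, fragments per kilobase of exon, scaled to the library size) in WT or KO hearts. They took in 2.05% of the genes tested, 0.524% lower and 1.53% higher. No member was called higher by this test or by the likelihood ratio test (2 were higher at an unadjusted p under 0.05, Ehhadh and Dgat1). The number of members called depended on the test. The edgeR likelihood ratio test called 6 members lower, namely Slc27a1, Cpt1a, Cpt2, Crat, Mlycd and Acacb, against 2.35% of all genes. DESeq2 called 13 lower, against 3.21% of all genes, and 1 higher, Dgat1, against 4.33%.

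**Figure D1:**
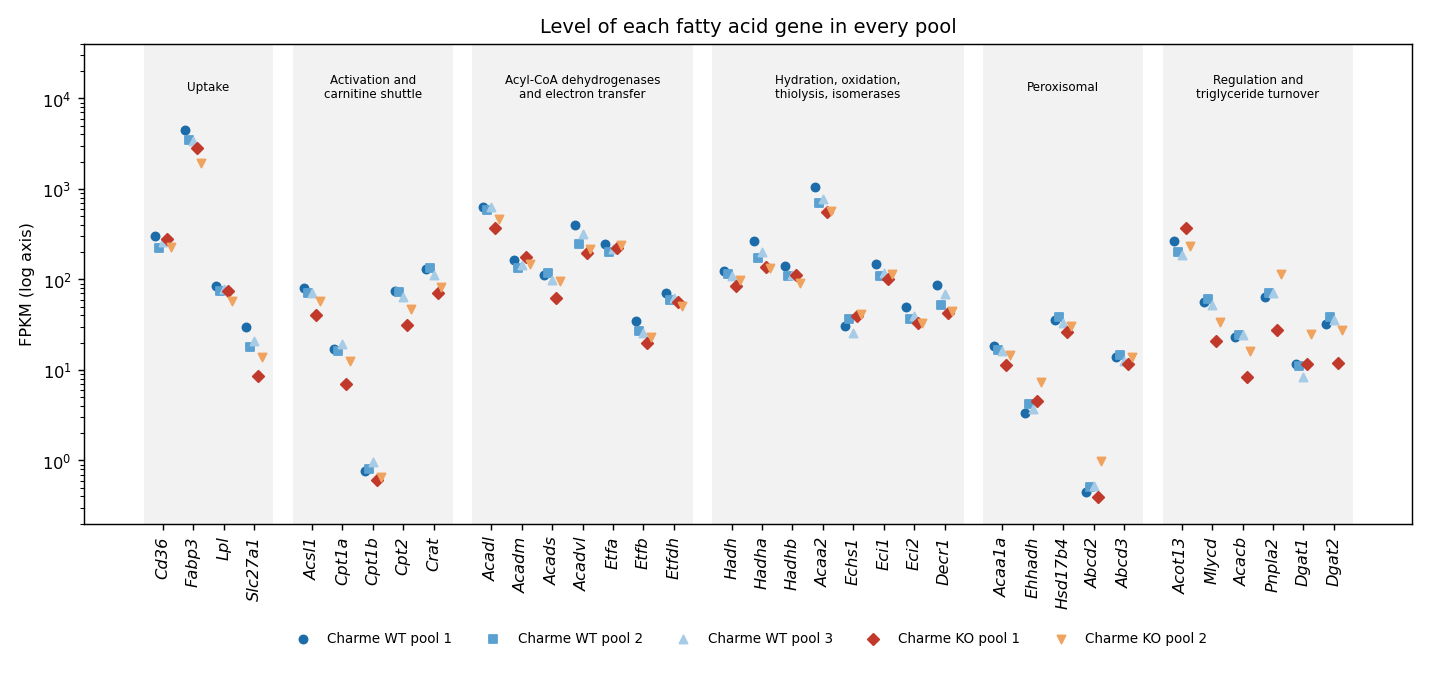
FPKM of the 35 genes (y axis, log scale) in each of the 3 Charme WT pools and 2 Charme KO pools, grouped by step of the pathway along the x axis; each point is 1 pool. Levels ran from under 1 FPKM for Cpt1b and Abcd2 to a WT mean of 3773 FPKM for Fabp3, and both KO pools lay below all WT pools at each of the 5 genes of activation and the carnitine shuttle.

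Levels of the members spanned a wide range, with WT means from 0.497 FPKM (Abcd2) to 3773 FPKM (Fabp3). Fabp3 made up 47.3% of the FPKM summed over the members in WT hearts, so that the sum over the uptake genes is largely Fabp3.

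Among the uptake genes, all 4 had a fold change below 1, with a median log2 fold change of -0.46. Fabp3, the fatty acid binding protein of heart muscle, had 4456, 3439 and 3425 FPKM in WT pools 1 to 3, and 2810 and 1933 FPKM in KO pools 1 and 2. Both KO pools lay below the WT pools, and the KO mean was 2372 ± 620 FPKM (SD, n = 2) against 3773 ± 591 (SD, n = 3). Its log2 fold change was -0.67 ± 0.274 (SE), with an adjusted p of 0.242 in edgeR's quasi-likelihood test, so the difference was not called. Slc27a1, which encodes the transporter FATP1, had 29.9, 17.9 and 20.7 FPKM in WT pools and 8.58 and 14.1 FPKM in KO pools. It had the largest fold change of the uptake genes, at 49.6% of the WT level (log2 fold change -1.01 ± 0.276, adjusted p = 0.133). Cd36, the main fatty acid translocase of the heart, did not separate the groups. Its levels were 300.2, 223 and 260.3 FPKM in WT pools and 282 and 226 FPKM in KO pools, with a log2 fold change of -0.04. With a correction for gene length and GC content this became -0.55 (adjusted p = 0.193). Lpl, lipoprotein lipase, had a log2 fold change of -0.25, with KO pool 1 among the WT pools and KO pool 2 below them.

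All 5 genes of activation and the carnitine shuttle were lower in both KO pools than in every WT pool, as were 18.2% of all genes tested. Their median log2 fold change was -0.71, the lowest of the 6 steps in this fit. Uptake was lower with a correction for gene length and GC content (-0.65 against -0.52) and without KO pool 1 (-0.57 against -0.48), and regulation and triglyceride turnover was lower without KO pool 2 (-1.37 against -0.90). Summed over the step, the level was 304, 294 and 266 FPKM in WT pools against 151 and 199.9 FPKM in KO pools. Acsl1, the main acyl-CoA synthetase of the heart, had 79.9, 71.2 and 71.5 FPKM in WT pools, and 40.0 and 57.5 FPKM in KO pools. Cpt2, the carnitine acyltransferase of the inner membrane, had 74.3, 72.1 and 63.5 FPKM in WT pools and 31.7 and 47.4 FPKM in KO pools. It had the smallest p of the step (log2 fold change -0.82 ± 0.209, adjusted p = 0.112 in edgeR's quasi-likelihood test), just above the threshold. Crat, carnitine acetyltransferase, which buffers mitochondrial acetyl-CoA, was the most abundant gene of the step, with 132, 134 and 111 FPKM in WT pools. In KO pools it had 71.6 and 81.9 FPKM, at 61.1% of the WT level, with a smaller gap between the KO pools than Cpt2 or Cpt1a had.

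CPT1, the step that malonyl-CoA inhibits, has a liver and a muscle isoform, and both were counted. Cpt1a, the liver isoform, which the fetal and neonatal heart also expresses, had 17.0, 16.1 and 19.4 FPKM in WT pools and 7.01 and 12.5 FPKM in KO pools. Its log2 fold change was -0.84 ± 0.245, with an adjusted p of 0.148. Cpt1b, the muscle isoform, was counted at 0.763, 0.806 and 0.960 FPKM in WT pools and 0.609 and 0.665 FPKM in KO pools (log2 fold change -0.40 ± 0.329, adjusted p = 0.531). In GENCODE M21, 81.4% of the exon bases of Cpt1b are shared with another gene model, Gm44502, which was not matched among the counted genes. Whether an overlap of this kind bore on the counts of Cpt1b was not tested, so its level was not compared with that of Cpt1a.

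The acyl-CoA dehydrogenases and electron transfer genes were lower for 5 of 7 members, with a median log2 fold change of -0.45. Acadl, the long-chain dehydrogenase, was both the most abundant gene of the step and the one with the smallest p. It had 631, 591 and 625 FPKM in WT pools and 367 and 462 FPKM in KO pools, and its log2 fold change was -0.57 ± 0.208 (adjusted p = 0.204). Acadvl, the very-long-chain enzyme, varied more among WT pools, at 396, 249.6 and 314 FPKM, with 198 and 217 FPKM in KO pools. For Acads, the short-chain enzyme, the log2 fold change was -0.47. Acadm, the medium-chain enzyme, differed from these in direction, with a log2 fold change of 0.13 and KO pools that overlapped the WT pools. No test of chain length was made.

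Electron transfer flavoprotein is made of an alpha and a beta subunit, and the groups overlapped for the alpha but not for the beta subunit. Etfa, the alpha subunit, had 249, 202 and 217 FPKM in WT pools and 225 and 238 FPKM in KO pools, a log2 fold change of 0.06. Etfb, the beta subunit, had 35.2, 26.8 and 25.5 FPKM in WT pools and 19.7 and 23.0 FPKM in KO pools, a log2 fold change of -0.45 (adjusted p = 0.295). Of the exon bases of Etfb, 58.2% are shared with other gene models of the annotation, so its level is uncertain and is not compared with that of Etfa. Etfdh, which hands the electrons to ubiquinone, had a log2 fold change of -0.26 with both KO pools below the WT pools.

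Of the 8 genes from hydration to thiolysis and the isomerases, 7 had a fold change below 1, and their median log2 fold change was -0.34. Acaa2, the mitochondrial thiolase of the last reaction, was the most abundant, with 1043, 698 and 768 FPKM in WT pools and 551 and 564 FPKM in KO pools. The KO pools lay close together, while WT pool 1 was well above the other WT pools. The log2 fold change was -0.58 ± 0.234 (adjusted p = 0.235). Decr1, the reductase that prepares polyunsaturated chains, had 86.6, 51.9 and 69.5 FPKM in WT pools and 42.1 and 44.8 FPKM in KO pools. It had the smallest p of the step (log2 fold change -0.67 ± 0.226, adjusted p = 0.183).

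Hadha and Hadhb encode the subunits of the trifunctional protein, which works on long chains. Hadha had 264, 171 and 202 FPKM in WT pools and 137 and 134 FPKM in KO pools, and its log2 fold change was -0.65. For Hadhb the log2 fold change was -0.24, and KO pool 1, at 112 FPKM, lay within the WT range of 109.8 to 139.7 FPKM. Echs1, the short-chain enoyl-CoA hydratase, was the exception in direction, with 30.9, 36.2 and 25.6 FPKM in WT pools and 39.0 and 41.8 FPKM in KO pools. Both KO pools were above the WT pools (log2 fold change 0.39 ± 0.193, adjusted p = 0.311). The remaining genes of the step, Hadh, Eci1 and Eci2, had log2 fold changes of -0.33, -0.22 and -0.35.

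**Figure D2:**
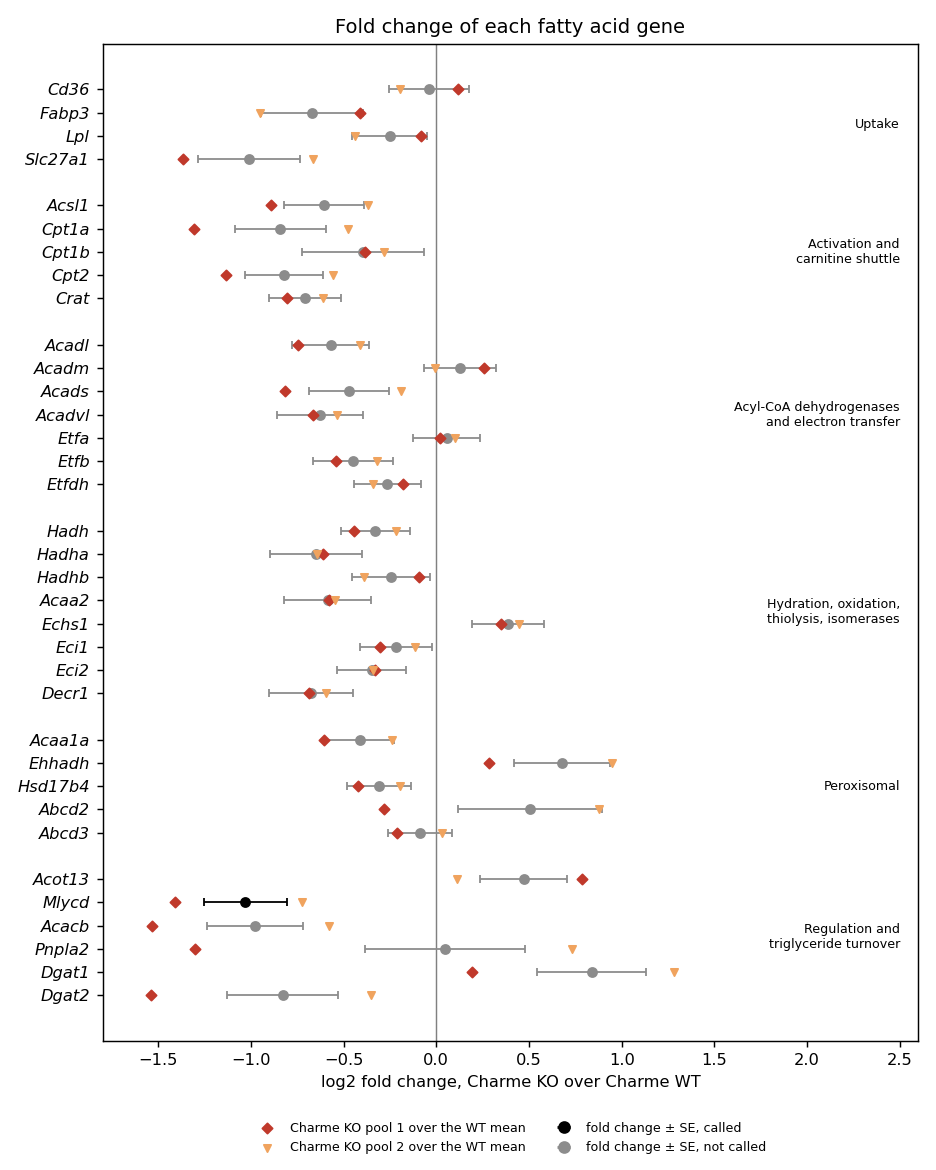
Log2 fold change of each of the 35 genes, Charme KO over Charme WT (x axis; circle with SE bar, black where called), with each KO pool's log2 CPM minus the mean of the 3 WT pools (diamond, KO pool 1; triangle, KO pool 2). Mlycd, at -1.03, is the called gene, and the KO pools lie on opposite sides of 0 at Pnpla2.

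The peroxisomal genes showed the smallest median difference, a log2 fold change of -0.09, with 3 of 5 below 1. Hsd17b4, a bifunctional enzyme of the peroxisome, had the highest level, with 35.3, 38.2 and 33.2 FPKM in WT pools and 26.5 and 30.9 FPKM in KO pools (log2 fold change -0.31 ± 0.173, adjusted p = 0.361). Ehhadh, the other bifunctional enzyme, went the other way, with 3.31, 4.16 and 3.72 FPKM in WT pools and 4.56 and 7.31 FPKM in KO pools. Its log2 fold change of 0.68 ± 0.258 was not called (adjusted p = 0.217). Acaa1a, a peroxisomal thiolase, had a log2 fold change of -0.41, but it has a near-identical copy, Acaa1b, so its counts are less certain. The transporters of the peroxisomal membrane, Abcd3 and Abcd2, had log2 fold changes of -0.09 and 0.51 with overlapping groups, and Abcd2 was near 0.5 FPKM in WT hearts. Taken over the 15 genes of mitochondrial beta-oxidation, from dehydrogenation to the isomerases and with electron transfer, the median log2 fold change was -0.35. The difference between the mitochondrial and the peroxisomal genes was not tested.

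The genes that set the flow through the pathway included the only call. Mlycd, malonyl-CoA decarboxylase, had 57.1, 60.3 and 52.0 FPKM in WT pools and 21.1 and 34.1 FPKM in KO pools. It fell to 48.9% of the WT level, with a mean of 27.6 ± 9.13 FPKM (SD, n = 2) against 56.5 ± 4.15 (SD, n = 3) and a log2 fold change of -1.03 ± 0.223 (adjusted p = 0.0731 in edgeR's quasi-likelihood test). Without WT pool 1, 2 or 3 the adjusted p was 0.216, 0.167 or 0.303 in the same test, and the call was lost each time. In these fits 2, 187 and 0 genes of any kind were called. Without KO pool 1 or 2 the log2 fold change of Mlycd was -0.73 or -1.42, and without a WT pool it lay between these values. Acacb, acetyl-CoA carboxylase 2, which makes the malonyl-CoA that MLYCD removes, had 23.4, 24.6 and 24.4 FPKM in WT pools and 8.30 and 16.2 FPKM in KO pools. Both KO pools lay far below WT pools that differed little, and the adjusted p was 0.124 (log2 fold change -0.98 ± 0.260). Of this pair, Mlycd was called and Acacb was not. Acot13, a thioesterase that splits acyl-CoA, was the most abundant gene of the group, with 266, 203 and 189 FPKM in WT pools and 374 and 234 FPKM in KO pools, which overlapped (log2 fold change 0.47 ± 0.235, adjusted p = 0.310).

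Enzymes of triglyceride turnover differed between the KO pools more than between the genotypes. Pnpla2, the lipase ATGL, which starts the breakdown of stored triglycerides, had 64.7, 71.4 and 71.5 FPKM in WT pools, 27.9 FPKM in KO pool 1 and 115 FPKM in KO pool 2. KO pool 1 was thus below and KO pool 2 above all WT pools, and the log2 fold change was 0.05 ± 0.433. Dgat1, which makes triglycerides, had 11.7, 11.1 and 8.38 FPKM in WT pools, 11.8 FPKM in KO pool 1 and 25.3 FPKM in KO pool 2 (log2 fold change 0.84 ± 0.296, adjusted p = 0.196). Only KO pool 2 stood clear of the WT pools. Dgat2, the other enzyme of that reaction, had 32.5, 38.3 and 35.4 FPKM in WT pools, 12.1 FPKM in KO pool 1 and 27.7 FPKM in KO pool 2 (log2 fold change -0.83 ± 0.300, adjusted p = 0.201). Here both KO pools were below, and KO pool 1 was the lower.

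Pool by pool, the members were not uniform within a genotype. The median of their log2 CPM minus the WT mean was 0.11, -0.06 and -0.06 in WT pools 1 to 3, and -0.44 and -0.34 in KO pools 1 and 2. WT pool 1 had the highest level among the WT pools for 22 of the 35 genes. KO pool 1 was lower than KO pool 2 for 26 of the 35, and 7 members lay more than 1 log2 unit below the WT mean in KO pool 1, against 0 in KO pool 2. The number of members below the WT mean was nevertheless similar, 28 in KO pool 1 and 27 in KO pool 2. At the uptake genes the order of the KO pools was turned, with medians of -0.25 in KO pool 1 and -0.55 in KO pool 2. The members took 1.63% to 2.02% of all counts in WT pools and 1.09% and 1.32% in KO pools. Of the counts that were not mitochondrially encoded they took 1.82% to 2.27% in WT pools and 1.38% and 1.46% in KO pools, so the KO pools were also below when the larger mitochondrial share of KO pool 1 was set aside.

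**Figure D3:**
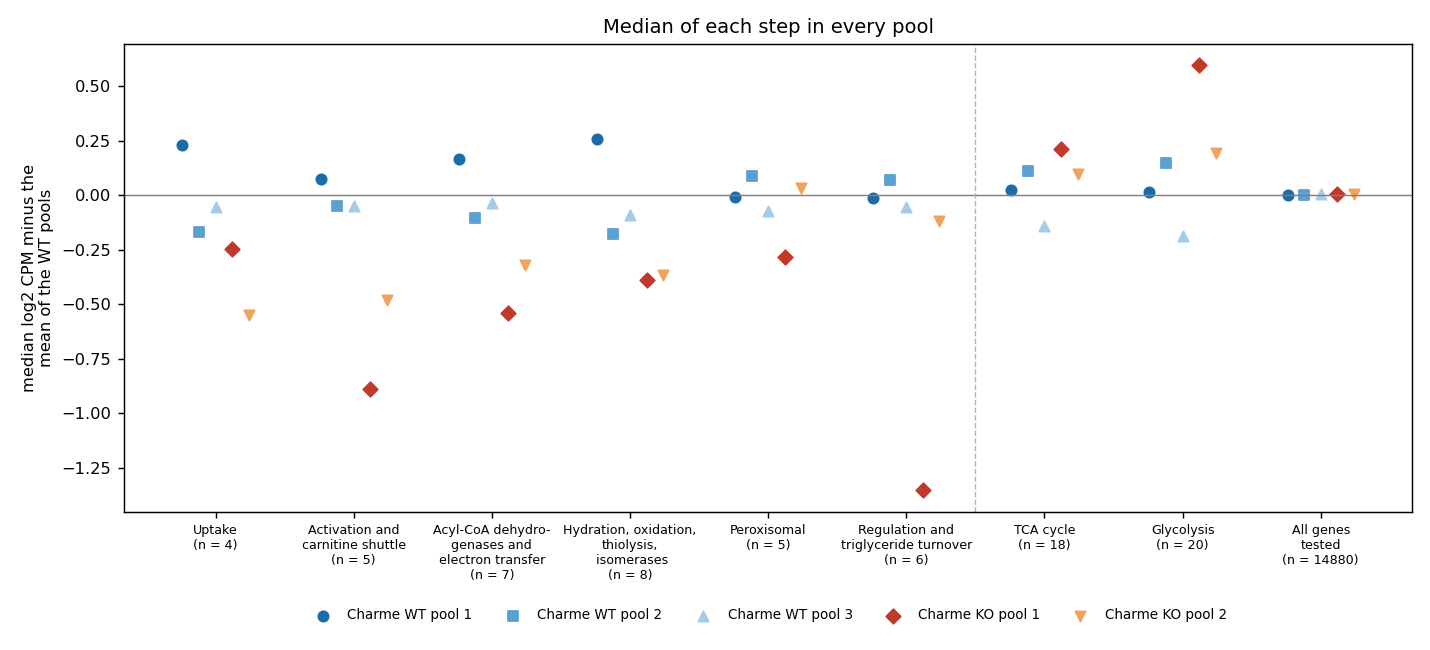
Median over the genes of each step (x axis, number of genes in brackets) of log2 CPM minus the mean of the 3 WT pools (y axis), with 1 point per pool. Both KO pools lie below all WT pools at each step except the peroxisomal one, where KO pool 2 lies among them, and the KO pools are farthest apart at regulation and triglyceride turnover. To the right of the dashed line, the tricarboxylic acid (TCA) cycle, glycolysis and all genes tested are shown.

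Leaving out a KO pool changed which members were called. Without KO pool 2, 17 of the 35 members were called lower, against 15.6% of all genes in the same fit, so that many more genes of any kind were called as well. In the same fit 1 member was called higher, Acot13 (log2 fold change 0.76, adjusted p = 0.0189), against 16.1% of all genes. Without KO pool 1, 1 member was called lower, Mlycd, against 1.27% of all genes. In that fit 3 members were called higher, Dgat1 (adjusted p = 0.00258), Pnpla2 (0.0308) and Ehhadh (0.0318), against 3.06% of all genes. In each of these fits the lone KO pool was assumed to vary as the WT pools do.

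KO pool 2, in which Pnpla2, Dgat1 and Ehhadh were high, also held RNA of adipocyte markers. Ucp1, the uncoupling protein of brown fat, was at 3.74, 0 and 0 CPM in WT pools, 36.9 CPM in KO pool 1 and 708 CPM in KO pool 2. Adipoq, the adipocyte hormone adiponectin, was at 0.485, 0 and 0.202 CPM in WT pools, 2.90 CPM in KO pool 1 and 81.2 CPM in KO pool 2. Summed over 5 brown adipocyte markers, the level was 118 to 133 CPM in WT pools, 288 CPM in KO pool 1 and 946 CPM in KO pool 2, and 2 of the markers, Ucp1 and Elovl3, were at 0 in WT pools 2 and 3. In KO pool 1 most of this sum was Ppargc1a, at 217 CPM against 78.6 to 100.02 CPM in WT pools, and Cidea, at 23.6 CPM, was below the 27.9 to 35.4 CPM of the WT pools. Over 6 adipocyte markers, most of it Fabp4, the level was 494 to 650 CPM in WT pools, 638 CPM in KO pool 1 and 1283 CPM in KO pool 2. Of the 5 adipocyte markers tested, 4 were above every WT pool in both KO pools, as were 17.8% of all genes. Fat cells also express genes of this pathway, and their part in the levels of either KO pool was not tested. Skeletal muscle markers (8 genes) were at 43.6 to 99.0 CPM in WT pools, at 76.5 CPM in KO pool 1, within that range, and at 166 CPM in KO pool 2. Most of this sum was Acta1. Of the 7 markers tested, 6 were above every WT pool in both KO pools, as were 17.8% of all genes. Myh8 had 1.70, 1.92 and 2.53 CPM in WT pools and 8.07 and 22.5 CPM in KO pools. The brown adipocyte sum was higher in both KO pools, and so were those of salivary gland, erythroid cells and proliferation. Salivary gland genes (7 genes) had 0.339 to 3.59 CPM in WT pools against 327 and 24681 CPM in KO pools. Erythroid genes (7 genes) had 869 to 1253 against 2282 and 1615 CPM. Proliferation genes (6 genes) had 249.6 to 363 against 1347 and 745 CPM. The part of these lists was not tested either. The 6 endothelial markers, of cells that express Cd36 as well, summed to 906 to 1157 CPM in WT pools and to 771 and 943 CPM in KO pools.

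**Figure D4:**
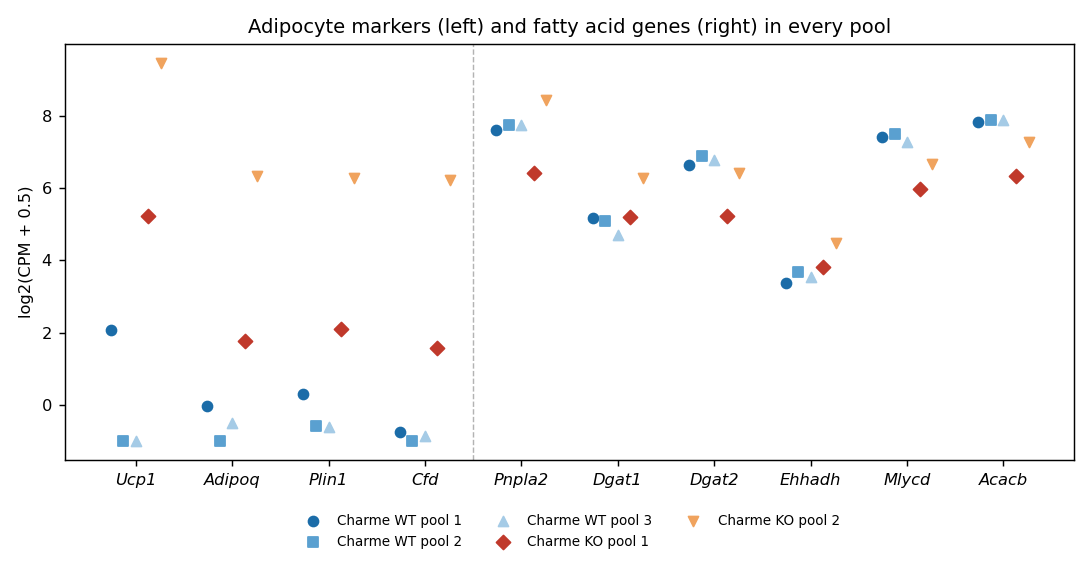
Log2(CPM + 0.5) of 4 adipocyte markers (left of the dashed line) and of 6 fatty acid genes (right) in each of the 5 pools. The markers are highest in KO pool 2, where Pnpla2, Dgat1 and Ehhadh are also above every other pool, while Mlycd and Acacb are below the WT pools in both KO pools.

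A further list of 54 genes of the same pathway was examined, of which 53 could be tested and Acsl6 could not. Of these, 6 were called lower in KO hearts and 1 higher, against 0.524% and 1.53% of all genes, and the median log2 fold change of the list was -0.08. All 7 were among its 14 genes of mitochondrial oxidation and thioesterases. Of these 14, 6 had a fold change below 1 and 8 above 1, with a median log2 fold change of 0.12. Ucp3, the uncoupling protein of muscle mitochondria, had 17.3, 12.9 and 17.6 FPKM in WT pools and 1.99 and 2.59 FPKM in KO pools. It was at 14.5% of the WT level, with both KO pools far below (log2 fold change -2.79 ± 0.247, adjusted p = 0.00834 in edgeR's quasi-likelihood test). Ucp2, the more widely expressed relative, had 45.3, 42.5 and 53.5 FPKM in WT pools and 7.42 and 19.1 FPKM in KO pools (log2 fold change -1.83 ± 0.347, adjusted p = 0.0497).

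Pdk4, the kinase that shuts pyruvate dehydrogenase and so favours fatty acid use, had 95.8, 81.2 and 110 FPKM in WT pools and 36.2 and 35.8 FPKM in KO pools. The KO pools lay close together, at 37.7% of the WT level (log2 fold change -1.41 ± 0.194, adjusted p = 0.0336). Oxct1, which lets tissues use ketone bodies, was the gene called higher, with 58.6, 90.4 and 47.4 FPKM in WT pools and 211 and 122 FPKM in KO pools (log2 fold change 1.34 ± 0.300, adjusted p = 0.0798).

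The other calls were acyl-CoA thioesterases, which release free fatty acids from CoA. Acot1 had 50.5, 32.6 and 41.9 FPKM in WT pools and 7.83 and 19.0 FPKM in KO pools, and Acot2 had 103, 70.3 and 91.2 FPKM against 26.5 and 47.2 FPKM. Their log2 fold changes were -1.63 (adjusted p = 0.0690) and -1.25 (adjusted p = 0.0696) in edgeR's quasi-likelihood test. These genes are nearly identical copies, so the counts of each are less certain. Acot7 had 44.6, 39.6 and 39.8 FPKM in WT pools and 20.8 and 24.7 FPKM in KO pools, a log2 fold change of -0.86 (adjusted p = 0.0671). All 3 were lower in both KO pools, unlike Acot13 above, whose groups overlapped. The calls of these 7 genes changed when a pool was left out, as did calls over all genes. All genes called, 305 with every pool, numbered 2 without WT pool 1, 187 without WT pool 2 and 0 without WT pool 3. Without WT pool 1, Ucp3 alone of the 7 was called (adjusted p = 0.0766 in edgeR's quasi-likelihood test). In that fit the log2 fold changes were -2.73 (Ucp3), -1.40 (Pdk4), -1.85 (Ucp2), -1.47 (Acot1), -1.13 (Acot2), -0.80 (Acot7) and 1.27 (Oxct1). Without WT pool 3 the adjusted p of the 7 ran from 0.107 to 0.362. Acot7 was not called without WT pool 2 (0.149), nor Oxct1 without KO pool 1 (0.1004).

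**Figure D5:**
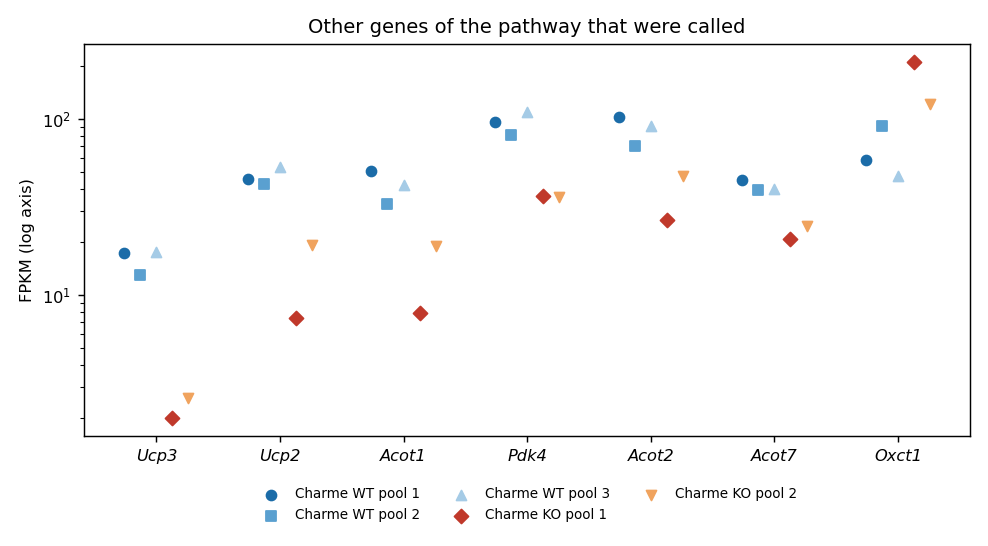
FPKM (y axis, log scale) of the 7 further pathway genes that were called, in each of the 3 Charme WT and 2 Charme KO pools. At 6 genes both KO pools lie below all WT pools, and at Oxct1 they lie above.

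Other routes of energy metabolism were set beside the members as a description. The 18 genes of the TCA cycle, which takes up the acetyl-CoA of beta-oxidation, were above 0 for 11 and below 0 for 7, and their median was 0.15 on the log2 scale. The 20 genes of glycolysis and glucose transport had a median of 0.44, with 18 above 0, and 3 of them were called higher, against 1.53% of all genes. By pool, the glycolysis median was 0.60 in KO pool 1 and 0.19 in KO pool 2, beside -0.19 to 0.15 in WT pools. KO pool 1, with the higher glycolysis median, had the lower median of the KO pools at every step but uptake (-0.25 against -0.55 in KO pool 2). The order of only 2 pools cannot show a relation between lists. Differences between these lists and the members were not tested.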

How the data were processed

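The authors trimmed paired-end reads of 150 nucleotides, kept those of at least 35, used STAR for alignment to GRCm38 and for counting by strand (reverse) on the Ensembl 87 genes. The deposited counts are raw whole numbers. A deposited FPKM table with decimal commas was not used, and FPKM was computed from the counts with union exon lengths of GENCODE M21, with 1 kb assumed for 23 genes that had none. Genes that reached 10 counts in 2 or more pools were kept, scaled by TMM and tested with edgeR 4.0.16 (quasi-likelihood test, R 4.3.3, limma 3.58.1), with Benjamini-Hochberg adjustment over 14880 genes. Apart from the test, the settings are those of the study, which used the likelihood ratio test. The SE is the log2 fold change over the square root of F. DESeq2 1.42.0 was an alternative.

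Values in every pool were given for members called, for the most abundant member and the one with the smallest p of each step, and for both CPT1 isoforms. Of the further pathway genes, those called and the 4 with the smallest p were named. A gene of that list is not reported here. Cd36, Lpl, Acsl1, Acadvl, Hadha, Echs1, Etfa, Etfb, Acacb, Pnpla2, Dgat1, Dgat2 and the marker genes were described after their values were seen. Members, lists and tests were chosen with earlier results of these data known. With 3 pools against 2 there are 10 assignments, and the smallest exact p is 0.1. Reads carry no molecular identifiers. Scripts were tested on simulated data. Alternatives were other tests, normalizations, filters, a replicate block, a correction for gene length and GC content, and each pool left out.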

Additional observations from a re-analysis of the deposited data

How the results depend on the processing

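The median log2 fold change of the 35 members kept its direction in all 19 alternatives, between -0.48 and -0.31, and 29 of the 35 members never changed sign. All genes called numbered 305 (78 lower, 227 higher), 933 with the likelihood ratio test, 1122 with DESeq2, 111 at an adjusted p under 0.05, 159 with a replicate block plus a length and GC correction, and 0 to 4607 with a pool left out (0 without WT pool 3, where 1315 genes had an unadjusted p under 0.05, and 2 without WT pool 1). The share of calls that were lower was 25.6%, and 36.2% with the length and GC correction (127 lower, 224 higher), 37.4% with the likelihood ratio test, 42.5% with DESeq2 and 12.6% at an adjusted p under 0.05. Of all genes tested, 0.524% were called lower, 2.35% with the likelihood ratio test and 3.21% with DESeq2. This share was 0.278% without the count filter and 0.0941% at an adjusted p under 0.05. It was 0.403% with the replicate block (210 genes called either way), 0.853% with the length and GC correction and 0.329% with both. With a pool left out, calls over all genes also changed, so the ranges below are not particular to the pathway genes. Members called lower, 1 in the report, were 6 with the likelihood ratio test, 13 with DESeq2, 2 without the count filter, 0 at an adjusted p under 0.05, 3 with the replicate block, 4 with the length and GC correction, 2 with both, and 0 to 17 with a pool left out. Members called higher, 0 in the report, were 1 by DESeq2 and 0 to 3 with a pool left out. Further pathway genes called lower, 6, were 11 with either of those tests, 3 at an adjusted p under 0.05 and 0 to 20 with a pool left out; those called higher, 1, were 3 with either test, 0 at an adjusted p under 0.05, with the replicate block, with the length and GC correction and with both, and 0 to 9 with a pool left out. The carnitine shuttle median was -0.52 and the uptake median -0.65 with the length and GC correction, and -0.60 and -0.68 with that correction and the replicate block, so that uptake was the lower of the pair in both.

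With a pool left out, step medians ranged from -0.57 to -0.26 for uptake, -0.90 to -0.48 for the carnitine shuttle, -0.57 to -0.29 for the dehydrogenases, -0.40 to -0.24 for hydration to thiolysis, -0.34 to 0.030 for the peroxisomal genes and -1.37 to -0.13 for regulation and triglyceride turnover, the lowest of the last without KO pool 2. The other 6 members changed sign in some fit. Pnpla2 was -0.26 with the replicate block, -0.10 with the block and the length and GC correction, and -1.32 to 0.73 with a pool left out. Etfa was -0.27 with the length and GC correction, -0.26 with both and -0.011 to 0.15 with a pool left out. Ranges with a pool left out were -0.20 to 0.10 for Cd36, -0.0090 to 0.24 for Acadm, -0.22 to 0.030 for Abcd3 and -0.34 to 0.98 for Abcd2. The cause of these changes was not tested. The replicate numbers are shared by only 2 pairs, and the labels do not say that they mark litters; over the 14880 genes the deviations of same-numbered pools correlated at 0.180 and 0.116. Counts were lowest for Cpt1b and Abcd2, under 1 FPKM in both genotypes, whose values are the least precise.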

Other observations

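Isoforms of one activity had fold changes on both sides of 1. Of the long-chain acyl-CoA synthetases, Acsl1 was below the WT pools in both KO pools, as described above, whereas Acsl5 had 5.54, 6.51 and 5.56 FPKM in WT pools and 7.70 and 9.68 FPKM in KO pools (log2 fold change 0.57 ± 0.194, adjusted p = 0.188 in edgeR's quasi-likelihood test). Acsl4 had 5.06, 4.78 and 5.19 FPKM in WT pools and 10.7 and 5.70 FPKM in KO pools (log2 fold change 0.71 ± 0.254, adjusted p = 0.201). Neither was called, and both KO pools lay above the WT pools for each, as they did for 17.8% of all genes tested. For Acsl3 the groups overlapped, with 18.4, 9.37 and 15.1 FPKM in WT pools and 24.6 and 11.7 FPKM in KO pools (log2 fold change 0.34 ± 0.335). In the lipid droplet, Lipe, the hormone-sensitive lipase, had 12.5, 11.8 and 12.7 FPKM in WT pools, 3.88 FPKM in KO pool 1 and 25.3 FPKM in KO pool 2, with the KO pools on opposite sides of the WT pools as at Pnpla2. Plin5, the droplet protein of oxidative tissues, had 43.3, 34.8 and 31.9 FPKM in WT pools, 9.47 FPKM in KO pool 1 and 30.2 FPKM in KO pool 2. The genes of this paragraph were chosen after their values were seen.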
